A study of Mus musculus with 2 samples.

Results

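Intergenic transcript models are long-read models that the authors' annotation placed outside every annotated gene. They were taken as the models whose class is Intergenic, which were 3956 of 133494 mouse models in replicate 1 and 3850 of 116334 in replicate 2. Models that overlapped on the same strand were merged across the libraries into 6575 loci, of which 554 held a model of 2 or more exons and 6021 held single-exon models alone. Each library was built from 2 µg of total RNA with added spike-in RNAs. The tissue was left cerebral cortex, taken at 14 days of age from females of the strain B6CASTF1/J, the F1 hybrid of C57BL/6J with CAST/EiJ. There was 1 group with 2 libraries, the numbered biological replicates 1 and 2. The sample text of replicate 1 mentions several females and that of replicate 2 a single one, both under 1 donor entry, so every p-value weighs these libraries against counting error and not against the spread between animals. Alleles of the parents were not separated.

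A read outside annotated genes can come from a long noncoding RNA, from transcription that runs on past a gene's polyadenylation site, from the other side of a promoter that fires in both directions, or from a transcribed repeat. Introns are removed from RNA by the splicing machinery, although a short gap in an alignment can also be drawn as an intron, so spliced and single-exon loci were kept apart throughout. Loci are numbered here with the letters IG in order of chromosome, strand and position.

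The sequences printed here are from RefSeq promoter windows, which run from 250 bases before to 50 bases after a gene start on GRCm38.p6, the same assembly as mm10. They were chosen after the loci were examined. The first 5 show where spliced loci began at or near a gene start. All are written along the locus strand, and capitals mark the bases inside the locus.
IG5736, start opposite Med26 (chr8:72548261-72548560, plus strand): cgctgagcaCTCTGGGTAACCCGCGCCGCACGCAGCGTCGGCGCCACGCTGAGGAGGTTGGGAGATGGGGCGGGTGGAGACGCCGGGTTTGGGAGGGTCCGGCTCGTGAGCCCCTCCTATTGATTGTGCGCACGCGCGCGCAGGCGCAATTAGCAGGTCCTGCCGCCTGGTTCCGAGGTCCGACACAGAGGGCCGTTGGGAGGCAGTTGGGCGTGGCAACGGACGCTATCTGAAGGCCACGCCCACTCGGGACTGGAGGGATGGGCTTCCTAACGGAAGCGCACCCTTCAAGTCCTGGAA
IG2609, start opposite Micos13 (chr17:56609722-56610021, plus strand): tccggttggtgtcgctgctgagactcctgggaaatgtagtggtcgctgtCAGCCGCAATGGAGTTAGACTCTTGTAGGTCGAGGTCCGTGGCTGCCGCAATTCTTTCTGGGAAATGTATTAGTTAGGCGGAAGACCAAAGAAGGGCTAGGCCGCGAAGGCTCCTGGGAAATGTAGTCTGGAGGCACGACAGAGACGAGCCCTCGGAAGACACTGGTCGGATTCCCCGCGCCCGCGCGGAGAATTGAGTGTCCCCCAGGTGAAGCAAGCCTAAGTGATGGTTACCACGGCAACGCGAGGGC
IG0842, start of Ggnbp2os (chr11:84870673-84870972, plus strand): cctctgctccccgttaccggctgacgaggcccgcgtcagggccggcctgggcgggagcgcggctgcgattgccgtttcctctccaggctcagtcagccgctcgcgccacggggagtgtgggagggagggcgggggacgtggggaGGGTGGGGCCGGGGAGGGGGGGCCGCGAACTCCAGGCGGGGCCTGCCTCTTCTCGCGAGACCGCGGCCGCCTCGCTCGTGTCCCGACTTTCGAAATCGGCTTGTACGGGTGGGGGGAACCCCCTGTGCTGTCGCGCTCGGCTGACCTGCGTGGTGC
IG2540, start of Gm38396 (chr17:17179055-17179354, plus strand): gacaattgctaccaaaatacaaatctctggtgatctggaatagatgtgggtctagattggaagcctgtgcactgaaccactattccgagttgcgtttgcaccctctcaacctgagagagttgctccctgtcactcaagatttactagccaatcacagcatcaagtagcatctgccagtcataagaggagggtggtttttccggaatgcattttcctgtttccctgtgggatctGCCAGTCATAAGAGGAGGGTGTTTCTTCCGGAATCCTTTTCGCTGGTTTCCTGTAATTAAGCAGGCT
IG6043, start of Gm36365 (chr9:64771361-64771660, plus strand): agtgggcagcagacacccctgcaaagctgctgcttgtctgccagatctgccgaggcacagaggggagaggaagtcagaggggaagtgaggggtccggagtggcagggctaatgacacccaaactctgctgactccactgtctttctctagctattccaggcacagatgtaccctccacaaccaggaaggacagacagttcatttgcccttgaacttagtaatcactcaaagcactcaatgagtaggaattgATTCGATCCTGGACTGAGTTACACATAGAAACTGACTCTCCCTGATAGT
The next pair shows short single-exon loci. IG5120 is complete and IG4645 is shown from the first base that a window covers to its last base. Capitals mark AATAAA, the polyadenylation signal, where matches do not overlap each other.
IG5120 (chr6:140681576-140681740, plus strand): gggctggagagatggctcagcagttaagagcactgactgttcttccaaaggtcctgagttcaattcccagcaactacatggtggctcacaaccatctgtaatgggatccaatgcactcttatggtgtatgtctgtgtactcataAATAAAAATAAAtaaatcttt
IG4645 (chr5:93221397-93221522, plus strand): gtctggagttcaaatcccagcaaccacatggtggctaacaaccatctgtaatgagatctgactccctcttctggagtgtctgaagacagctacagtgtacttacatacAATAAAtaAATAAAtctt

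In replicate 1, IG5736 started at the first M21 base of Med26, a subunit of the Mediator complex, and 40 bases from its RefSeq start, and ran the other way. IG2609 started at the very base where Micos13 starts, a gene for a component of the mitochondrial cristae junction complex that M21 lists as 2410015M20Rik. Starts are those of the models, and whether model ends were moved to annotated positions is not recorded. IG0842 started 106 bases before the RefSeq start of Ggnbp2os and at the first base of Ggnbp2 on the other strand. Its spliced model began farther on, at base 84872355. IG2540 started 17 bases before the RefSeq start of Gm38396, and in replicate 1 IG6043 started 1 base past that of Gm36365, both on the gene's strand. The windows at Ggnbp2os, Med26 and Micos13 held 73.7%, 67.0% and 58.0% G and C, and those at Gm36365 and Gm38396 held 51.3% and 46.7%. Over all 32851 windows the median was 52.7%.

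Intergenic models took few reads. They held 7897 reads in replicate 1, 0.736% of mouse reads (95% Wilson interval 0.720 to 0.753%), and 6623 reads in replicate 2, 0.879% (0.858 to 0.900%), a mean of 0.808 ± 0.101% (SD, n = 2). Antisense models, which lie opposite annotated genes, held 6.69% and 9.15%. The intergenic share was 1.19 times as high in replicate 2, and a two-sided exact binomial test on the reads of these libraries gave p = 3.53e-26. The totals were 1072344 mouse reads in replicate 1 and 753520 in replicate 2, and levels are given as RPM, reads scaled to library size, where 1 read was worth 0.933 RPM in replicate 1 and 1.33 RPM in replicate 2. A count of 0 allows up to 3 reads, 2.80 RPM in replicate 1 and 3.98 RPM in replicate 2. Intervals and limits cover counting error only.

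All 19 of the cortical marker genes listed for neurons, glia, microglia and vessels were read in both libraries. Of 7 markers of choroid plexus, red cells and cerebellum, Ttr and Hba-a1 were read in both. Ttr, which choroid plexus makes in quantity, was at 27 reads in replicate 1 and at 193 in replicate 2, and Hba-a1, a haemoglobin gene, had 253 and 227. Mbp, the myelin basic protein gene, had 3939 and 1614. The part of these differences in cell makeup in the values of intergenic loci was not tested.

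Most intergenic models rested on a single read. Such models were 75.5% of the class in replicate 1 (74.1 to 76.8%) and 78.1% in replicate 2 (76.7 to 79.3%), against 59.8% and 60.1% of antisense models. Models with 10 or more reads numbered 63 and 51. After merging, 4759 of the 6575 loci had 1 read over both libraries, 1816 had 2 or more, and 143 had 10 or more. Those 143 loci held 33.2% of the intergenic reads of replicate 1 and 25.9% of those of replicate 2. A few places thus carried a large part of the class while most loci were seen once.

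The single-exon models had a sharp peak of short lengths. Their commonest length was 177 bases in both libraries, with 112 and 107 models of exactly that length. Over both libraries 219 intergenic, 138 antisense and 109 Genomic models had that length, so all 3 classes held a peak there. It took a larger share of the intergenic class. Models of 170 to 185 bases were 682 of 3617 single-exon models in replicate 1, 18.9% (17.6 to 20.2%), and 676 of 3582 in replicate 2, also 18.9% (17.6 to 20.2%). In the antisense class that length range held 2.99% and 2.69% of single-exon models, and in the Genomic class, whose models overlap genes without matching their splicing, 3.46% and 3.46%. The short models took 18.7% and 17.7% of the intergenic reads. Over all single-exon intergenic models the median length was 619 bases in replicate 1 and 538 in replicate 2, and the upper quartile 1753 and 1760.

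**Figure D1:**
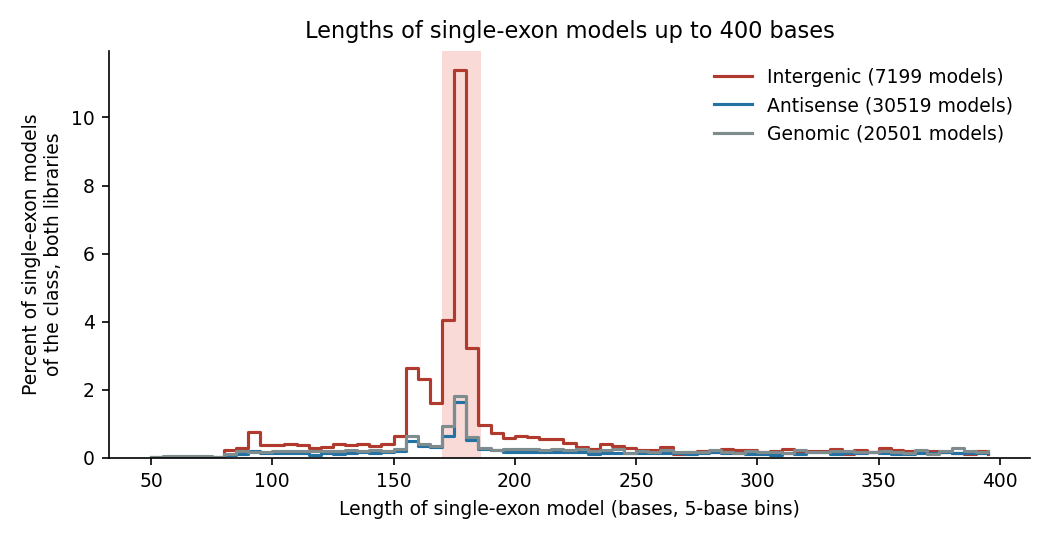
Lengths of single-exon models in 5-base bins, as a percent of all single-exon models of each class over both libraries; the shaded band spans 170 to 185 bases. The intergenic line stands far above the antisense and Genomic lines in the band, which holds 18.9% of intergenic single-exon models in each library.

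Short loci had 5′ ends close together in both libraries more often than long ones. Among loci with a single model in each library, 370 had no model over 200 bases. Their 5′ ends lay within 10 bases of each other in 365 of the 370 loci (98.6%) and their 3′ ends in 322 (87.0%). Among the 688 single-exon loci with a longer model, 5′ ends were within 10 bases in 275 (39.97%), with a median distance of 178.5 bases, and 3′ ends in 529 (76.9%). Exactly identical 3′ ends were found at 182 short loci (49.2%) and 376 longer ones (54.7%), and identical 5′ ends at 120 (32.4%) and 174 (25.3%). Overlapping loci of this short size have little room for their ends to differ. Long loci ended in the same place more often than they began in the same place. The ends are those of the models in the files, not of single reads.

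Few short loci could be read as sequence. Of all loci, 392 share a base with one of the windows, and 4 loci of 150 to 200 bases lie in one from end to end. IG5120, 165 bases long, had 1 read in replicate 2 and none in replicate 1. IG4645, 177 bases long, had 1 read in each library. Both end in a stretch rich in A and T with more than 1 AATAAA, and share a near-identical stretch before it. Whether short loci are copies of a repeat was not tested, and neither was which copy their reads came from.

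The 3′ ends of 46 loci lay in a window with 40 bases before and 20 bases after them. The last 40 bases held AATAAA or ATTAAA on the locus strand in 10 of the 46 (21.7%, 12.3 to 35.6%), against 2.31% of stretches of the same length at a fixed place in all windows, both strands counted. The 20 genomic bases after the 3′ end held 12 or more A in 9 of the 46 (19.6%, 10.7 to 33.2%), against 0.816% of such stretches. Both features were present at 3 loci and either at 16. The windows lie at gene starts, so these 46 loci are no sample of the class.

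Intergenic loci lay at all distances from annotated genes. The nearest M21 gene end upstream on the same strand was a median of 58.0 kb away for spliced loci (quartiles 14.2 and 140 kb) and 29.8 kb for single-exon loci (6.92 and 99.3 kb). Loci that began within 5 kb of such a gene end numbered 55 of 554 spliced (9.93%, 7.71 to 12.7%) and 1264 of 6021 single-exon (20.99%, 19.98 to 22.04%). The spliced loci thus lay downstream of genes less often, and the intervals do not overlap. Another 59 spliced loci (10.6% of all spliced, 8.35 to 13.5%) and 395 single-exon loci (6.56% of all single-exon, 5.96 to 7.21%), none of them within 5 kb of such a gene end, began head to head within 1 kb of a gene start on the other strand. The remaining 440 spliced and 4362 single-exon loci were in neither position.

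**Figure D2:**
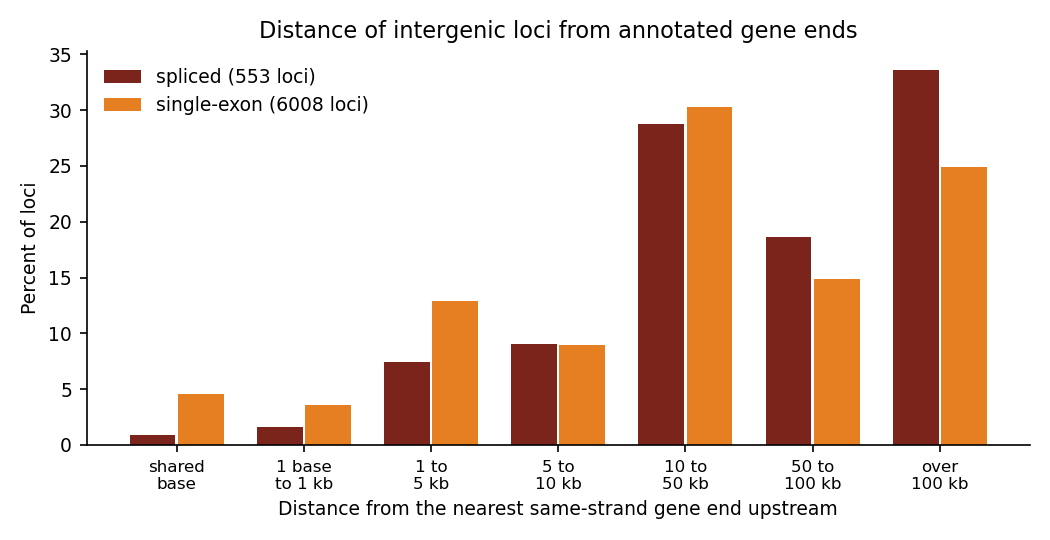
Percent of loci by distance from the nearest annotated gene end upstream on the same strand, for 553 spliced and 6008 single-exon loci with such a gene on their chromosome. Spliced bars are the lower ones up to 5 kb and the higher ones beyond 50 kb.

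No locus overlapped an M21 gene on either strand by more than a single base, yet many touched one. The first base of 280 loci was the last base of a gene on the same strand, and the first base of 374 loci was the first base of a gene on the other strand. With contacts at the 3′ end added, 838 loci (12.7%) shared a base with a gene boundary, and they held 22.05% and 16.7% of the intergenic reads. Whether the annotation software moved model ends to annotated positions is not recorded, so these contacts are those of models and not of single reads. Of the 280 loci that began at a gene end, 188 did so at a protein-coding gene and 51 (18.2%) at a processed pseudogene, a copy of an mRNA pasted back into the genome. Among the 1039 loci that began 1 base to 5 kb downstream of a gene, 104 followed a processed pseudogene (10.0%). Processed pseudogenes made up 17.9% of all M21 genes, so their share at shared gene ends was close to that over all genes. Protein-coding genes made up 39.7% of all M21 genes, against 67.1% at shared gene ends and 70.0% among the 1039 loci. The 374 starts shared with a gene on the other strand were at protein-coding genes in 317 cases (84.8%).

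Genes just upstream were read more often than genes far upstream. Of the 1319 loci that began within 5 kb of a gene end, 848 followed a gene that was read in both libraries (64.3%), and the genes had a median of 14 reads over both libraries. Of the 5242 loci that began farther from the nearest upstream gene, that gene was read in both libraries at 1780 (34.0%). The upstream gene was protein-coding at 915 of the 1319 loci and at 2107 of the 5242. The part of gene type in the difference was not tested. Spearman's rho between the reads of the locus and of the gene it followed was 0.07 over the 1319 loci, 854 of which had 1 read, as a description across loci.

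Spliced loci had few reads. Of the models, 339 in replicate 1 (8.57%) and 268 in replicate 2 (6.96%) were spliced, with up to 8 exons, and 187 and 158 of them had 2 exons. They took 400 and 299 reads, 5.07% (4.60 to 5.57%) and 4.51% (4.04 to 5.04%) of the intergenic reads. Antisense spliced models took 2.23% and 2.04% of the reads of their class. Introns of intergenic models had a median length of 2181.5 bases and ran from 36 bases to 190 kb. The chains found in both libraries included introns of 36 bases (IG6016) and 57 bases (IG1940), shorter than introns that are usually spliced. Of 554 spliced loci, 95 were read in both libraries, 53 of them by a spliced model in each, and at 23 the same chain of introns was found in both. Counted by chain, 23 of 584 intergenic chains were found in both libraries (3.94%, 2.64 to 5.84%), against 139 of 1722 antisense chains (8.07%, 6.88 to 9.45%). The chains were not matched for reads. Antisense spliced models had more reads per model, with 1601 and 1404 reads on 973 and 888 models.

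The spliced locus with the most reads was IG5794 (chr8:117459430-117461503, plus strand), which began at the last base of Cmip, a gene for an adaptor protein of T-cell signalling. In replicate 1 all 27 of its reads were on a single-exon model, and replicate 2 held 1 spliced read. The second, IG4729 (chr5:139484549-139512000, plus strand), had 1 unspliced read in replicate 1, from the first base of Zfand2a, a stress-induced zinc-finger gene on the other strand. Its 11 reads in replicate 2 were on a model that began at base 139485054 and had an intron of 26788 bases. IG4545, on the chromosome 4 scaffold chr4_JH584294_random, had 10 reads on a 3-exon model in replicate 1 and 1 in replicate 2. On intergenic models alone IG5794 and IG4729 differed between the libraries (exact binomial test, adjusted p = 0.00132 and 0.0312). IG4545 did not (exact binomial test, adjusted p = 0.407). With all classes on the same strand counted the 3 loci held 27 and 19 reads at IG5794, 20 and 11 at IG4729, and 16 and 10 at IG4545. None of the 3 then differed at an adjusted p under 0.05 (exact binomial test, adjusted p of 0.982 at IG4729 and 1 at the others). In most of the 10 leading spliced loci the spliced form appeared in 1 library, counted on intergenic models alone. Whether models of other classes at these loci held the same splices was not tested.

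IG0132 had the most reads of the spliced loci with the same introns in both libraries. It lay at chr1:131851862-131852163 on the plus strand, 2997 bases past the end of the magnesium transporter gene Slc41a1. It had 3 and 6 reads, all on a 2-exon model of 143 bases with identical ends and 1 intron of 159 bases. IG5736, opposite Med26, had 3 and 1 reads that shared an intron of 600 bases. IG6043, in Gm36365, had 1 and 2 reads that shared 2 introns of 4519 and 1643 bases. Each of these splices was thus found in both libraries on few reads.

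The other spliced loci among the 10 with the most reads had between 5 and 9 reads. IG1040 (chr11:69011500-69012472, minus strand) had 8 reads on a model with an intron of 444 bases in replicate 1 and 1 unspliced read in replicate 2. IG0842, in Ggnbp2os, had 3 and 5 reads, of which 1 in replicate 1 was spliced. IG5808 (chr8:125959760-125964685, plus strand), in the RefSeq gene Gm42056, had 7 and 1 reads, all spliced. IG5004 (chr6:47770981-47775095, plus strand), 6529 bases before the small cytoplasmic RNA gene Rny3, had 6 unspliced reads and 1 spliced one, and IG1776 (chr13:100589004-100594001, minus strand), 1956 bases past the tight-junction gene Marveld2, had 5 unspliced and 1 spliced. IG2609, opposite Micos13 and in the RefSeq extent of the ribosomal protein gene Rpl36, had 2 spliced reads in replicate 1 and 3 unspliced in replicate 2. Of these 6, IG5808 alone had spliced intergenic models in both libraries.

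The 5 loci with the most exons in a model of 2 or more reads were long and thinly read, and single-read models reached more exons. IG2013 (chr14:120768630-120798016, minus strand), in the RefSeq extent of Gm41253, had 5 exons and the same 4 introns in both libraries, with 2 reads and 1 read. IG0232 (chr1:30118225-30138215, minus strand), in Gm31465, had 4 exons and 3 introns shared by its 2 reads and 1 read. IG0080 (chr1:77522285-77560741, plus strand), in Gm32793, had 4 exons in replicate 1 and 5 in replicate 2, again with 2 reads and 1 read, and lay 7197 bases from the start of Epha4, an ephrin receptor gene on the other strand. IG2540, at Gm38396, had 4 exons in each library and 1 and 2 reads, with first introns of 23293 and 23243 bases that ended at the same base. IG1985 (chr14:84392692-84442946, minus strand), 617 bases from the start of the protocadherin gene Pcdh17 on the other strand, had 5 exons and 2 reads in replicate 1 and none in replicate 2. IG1985 lay in the RefSeq gene Gm32498, so all 5 overlapped a RefSeq gene on their own strand.

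Among single-exon loci, the one with the most reads was a short one. It leads the 10 described next, which are those with the most reads among loci read in both libraries. IG0882 and IG5524, with 281 and 145 reads in replicate 1 and 0 in replicate 2, are described with the loci of 1 library. IG2140 (chr15:103619062-103619240, plus strand) spans 179 bases and had 204 and 133 reads, 183 ± 9.71 RPM (SD, n = 2). Its model of 172 bases in replicate 1 began at base 103619062, and that of 121 bases in replicate 2 at base 103619120. The 5′ ends were thus more than 10 bases apart, unlike those of most short loci. On the same strand IG2140 lay 30.6 kb before Gm49272 and 89.0 kb past the end of Pde1b, a phosphodiesterase gene, which itself had 111 and 74 reads. IG0846 (chr11:88246040-88246215, plus strand), 176 bases long and inside the RefSeq gene Gm38534, had 42 and 35 reads, 42.8 ± 5.15 RPM. In replicates 1 and 2 the levels were 190 and 177 RPM at IG2140 and 39.2 and 46.4 RPM at IG0846, so the libraries were close at both. Whether the reads of these short loci came from other copies of the same sequence was not tested. Among the next short loci by reads, IG0347 (chr1:132824799-132824985, minus strand) had 31 and 29 reads, IG5509 (chr7:16966820-16966998, minus strand) had 12 and 15, and IG2626 (chr17:69313278-69313454, plus strand) had 24 and 7. They were chosen after their values were seen, and none lay in a RefSeq gene on the same strand.

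IG4397 (chr4:69925201-69925630, minus strand) had 104 and 84 reads, 104 ± 10.2 RPM, and began at the last base of the processed pseudogene Gm11223. The pseudogene's 450 bases matched those of Stmn1, which encodes the microtubule regulator stathmin, at 99.8%, and the Stmn1 transcript goes on for 440 bases past the match. The locus is 430 bases long. Gm11223 itself had 73 and 29 reads and Stmn1 had 278 and 209. Reads of near-identical copies cannot be assigned with certainty, so the level of this locus is uncertain. IG4846 (chr5:108365556-108366073, minus strand) had 76 and 54 reads, 71.3 ± 0.559 RPM, and began at the last base of Gm42517, a protein-coding gene with 88 and 56 reads.

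A further 3 of these 10 single-exon loci lay beside genes with roles in neurons or cell contact. IG3406 (chr2:157548316-157555583, plus strand) had 45 and 43 reads, 49.5 ± 10.7 RPM, and ended 4495 bases before the start of Nnat, an imprinted gene for a small membrane protein of neurons that had 106 and 146 reads. IG2764 (chr17:62883395-62885526, minus strand) had 65 and 24 reads and ended 2078 bases before the start of Efna5, an axon guidance ligand gene with 4 and 3 reads. IG2162 (chr15:21590765-21597256, minus strand) had 64 and 35 reads and lay opposite the RefSeq extent of Cdh12, a cadherin gene with 5 and 4 reads. In replicate 1 its models, of 2016 bases with 59 reads and 4477 bases with 5, shared a single base. At Efna5 and Cdh12 the intergenic locus had several times as many reads as the annotated gene beside it.

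The remaining 3 of the 10 were IG3719, IG4250 and IG1371. IG3719 (chr2:180719390-180720963, minus strand) lay opposite the RefSeq extent of Gid8, a ubiquitin ligase subunit gene, with 86 and 63 reads, 81.9 ± 2.41 RPM. IG4250 (chr4:133096030-133101549, plus strand) had 98 and 41 reads, 72.9 ± 26.1 RPM, 29.0 kb before Wasf2, an actin regulator gene. In replicate 1 its models, of 177 bases with 63 reads and 5181 bases with 35, shared a single base. In replicate 2 its models, of 343 bases with 25 reads and 4351 bases with 16, did not overlap. The level of IG4250 is thus a sum over a short and a long model in each library. IG1371 (chr12:21554521-21555953, minus strand) had 50 and 43 reads, 51.8 ± 7.38 RPM, 137 kb before Ywhaq, a 14-3-3 protein gene. It lay opposite the RefSeq extent of LOC115487949, and its last base was also the last base of an M21 gene on the other strand.

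**Figure D3:**
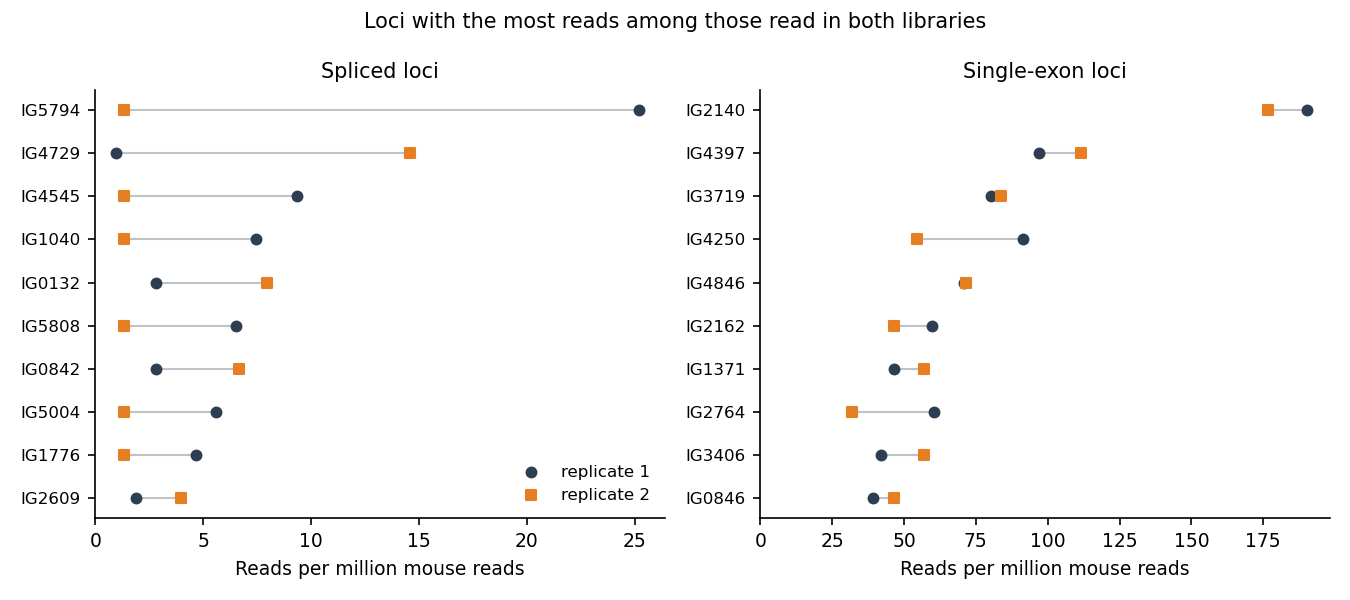
Levels in RPM, scaled by mouse reads, of the 10 spliced and the 10 single-exon loci with the most reads among loci read in both libraries; circles stand for replicate 1, squares for replicate 2. The single-exon loci reach 190 RPM at IG2140 and most of their paired points lie close together, while among the spliced loci replicate 1 is far higher at IG5794 and replicate 2 at IG4729; counted over all classes these held 27 and 19 reads, and 20 and 11.

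RefSeq annotates part of what M21 leaves out. On the same strand, 161 of 554 spliced loci (29.1%, 25.4 to 33.0%) and 644 of 6021 single-exon loci (10.7%, 9.94 to 11.5%) overlapped a RefSeq gene. Of the spliced loci, 138 lay in RefSeq lncRNA genes and 19 in protein-coding ones, and of the single-exon loci 204 and 380. The RefSeq table gives a span per gene and no exons, and a strand was found for 43678 of its 48772 genes. The 5′ end lay in a same-strand RefSeq promoter window at 47 spliced loci (8.48%) and at 26 single-exon loci (0.432%), and in a window of the other strand at 40 (7.22%) and 191 (3.17%).

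The examples that follow were chosen after their values were seen, as the single-exon loci in RefSeq coding genes that had the most reads among loci read in both libraries, besides IG4846. Some lay past the M21 end of the gene. IG1705 (chr13:51423364-51425990, minus strand) had 39 and 36 reads, 5051 bases past the end of Shc3, a neuronal adaptor gene. IG1559 (chr13:54383917-54388480, plus strand) had 29 and 18 reads and began at the last base of Cplx2, a gene for the synaptic protein complexin. IG1481 (chr12:109581014-109584410, minus strand) had 28 and 30 reads and lay past the M21 end of Rtl1, an imprinted gene derived from a retrotransposon. Others lay before the M21 start. IG2147 (chr15:8445287-8447591, minus strand) had 26 and 33 reads and ended 0.824 kb before the start of Nipbl, the cohesin loader gene. IG1482 (chr12:109600820-109602915, minus strand) had 25 and 46 reads and ended 0.49 kb before the start of Rtl1. Reads outside M21 genes thus fell at both ends of RefSeq genes.

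Recovery between the libraries rose with reads. Of loci read once in replicate 1, replicate 2 held 67 of 319 spliced (interval 16.9 to 25.8%) and 487 of 2633 single-exon ones (18.5%, 17.1 to 20.0%). At 2 to 4 reads the shares were 22 of 37 (59.5%, 43.5 to 73.7%) and 432 of 737 (58.6%, 55.0 to 62.1%). At 5 to 9 reads they were 4 of 5 and 114 of 132 (86.4%, 79.5 to 91.2%), and at 10 or more 2 of 2 and 53 of 60 (88.3%, 77.8 to 94.2%). The intervals of spliced and single-exon loci overlapped in each of the 4 ranges. Antisense loci were found again in 35.3% of cases after 1 read and 71.7% after 2 to 4, and annotated lincRNA genes in 32.8% and 73.8%, with intervals that do not overlap those of single-exon intergenic loci at either range. Over all reads 1181 of 6575 intergenic loci (17.96%, 17.05 to 18.9%) were read in both libraries, against 35.0% of antisense loci and 42.4% of lincRNA genes. At the depth of replicate 2, the 3925 loci of replicate 1 would number 2999, while replicate 2 had 3831.

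Some loci absent from 1 library were present there under another class, and more so the more reads they had. At 310 of the 5394 loci read in 1 library (5.75%, 5.16 to 6.40%), models of another class on the same strand shared exon bases with the locus in the other library, most often antisense (155) or Genomic (70). Among the 635 such loci with 2 or more reads it was 121 (19.1%, 16.2 to 22.3%), and among the 14 with 10 or more it was 11. The largest was IG0882 (chr11:100457022-100461670, plus strand), which began at the last base of Klhl10, a gene known for its part in male germ cells. It had 281 reads in replicate 1 and 0 in replicate 2, where 188 Genomic reads assigned to Klhl10 shared its exon bases. All models assigned to Klhl10 held 0 reads in replicate 1 and 190 in replicate 2. IG5524 (chr7:28187294-28189071, minus strand), opposite the RefSeq extent of the kinase gene Dyrk1b, held 145 and 0 reads, with 129 antisense reads in replicate 2. IG1299 (chr12:86693379-86695685, plus strand), 1288 bases past the end of Vash1, a tubulin carboxypeptidase gene, had 31 and 0, with 28 antisense reads in replicate 2.

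The reverse was seen too. IG5804 (chr8:124890057-124892561, plus strand), at the end of Gnpat, a gene of ether lipid synthesis, had 0 and 23 reads, with 38 antisense reads in replicate 1. IG5489 (chr7:3417561-3420728, minus strand) had 0 and 16, with 11 antisense reads in replicate 1. IG5279 (chr6:126636464-126638759, minus strand), 1638 bases past the end of the potassium channel gene Kcna1, had 0 and 15, with 10 Genomic reads in replicate 1.

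An exact binomial test with Benjamini-Hochberg adjustment was run over 13296 genes, antisense loci and intergenic loci of at least 10 reads. It called 15 of the 143 intergenic loci at an adjusted p under 0.05, which is 10.5%, against 1.58% of all features tested, 1.03% of annotated genes and 4.3% of antisense loci. Replicate 2 was higher at 10 intergenic loci (6.99%, against 0.895% of all features) and lower at 5 (3.5%, against 0.684%). With TMM factors the split was 10 higher and 8 lower, and with DESeq2 size factors 11 and 9. At 11 of the 15 a library had 0 reads, and at 12 another class was present in a library. When all same-strand classes were counted together, 4 of the 15 still differed. At most of the called loci the class given to the same stretch of genome thus differed between the libraries.

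The 4 loci were IG1482, IG0942, IG3954 and IG1376. With all classes counted the adjusted p was 0.00933 at IG1482 and IG0942, 0.000343 at IG3954 and 0.00682 at IG1376 (exact binomial test). Unless all classes are named, the locus values that follow are those of intergenic models alone. IG1482, in Rtl1, had 46 reads in replicate 2 and 25 in replicate 1, a log2 ratio of 1.38 (exact binomial test, adjusted p = 0.00905). Meg3, a long noncoding RNA gene of the same imprinted domain on the other strand, had 418 reads in replicate 2 and 338 in replicate 1. IG0942 (chr11:119929293-119935226, plus strand) lay 9745 bases past the end of Chmp6, a gene of the ESCRT machinery. It had 28 reads in replicate 2 and 8 in replicate 1, a log2 ratio of 2.25 (exact binomial test, adjusted p = 0.00155). With all classes counted IG0942 had 28 reads in replicate 2 and 10 in replicate 1, a log2 ratio of 1.95. The other two began at the last base of processed pseudogenes. IG3954 (chr3:58102578-58102996, minus strand) had 15 reads in replicate 2 and 0 in replicate 1 (exact binomial test, adjusted p = 0.000331). It followed Gm5537, whose 1252 bases match Pgk1, a glycolytic enzyme gene, at every base. Gm5537 itself had 12 reads in replicate 2 and 38 in replicate 1. IG1376 (chr12:24638005-24638669, minus strand) had 11 reads in replicate 2 and 0 in replicate 1 (exact binomial test, adjusted p = 0.00655). It followed Gm6969, whose 342 bases match Cox7a2l, a respiratory chain assembly gene, at 98.0%. Gm6969 itself had 71 reads in replicate 2 and 110 in replicate 1. As at Gm11223, reads could belong to either copy, and this was not tested.

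**Figure D4:**
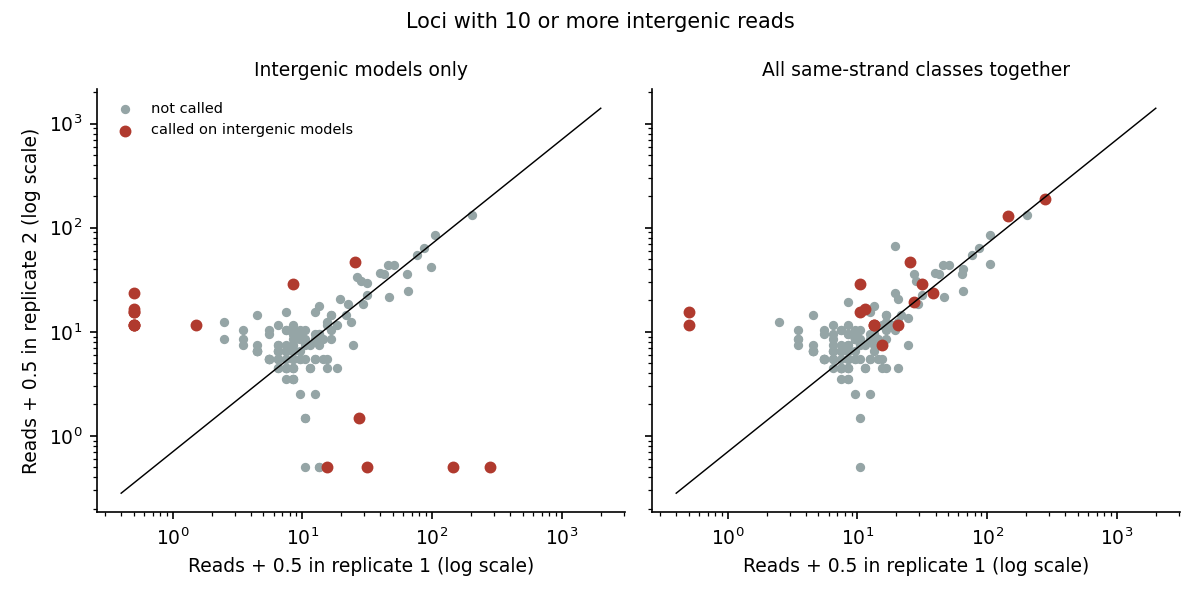
Reads plus 0.5 in replicate 2 against replicate 1 on log scales for the 143 loci with 10 or more intergenic reads, counted on intergenic models alone (left) and over all classes on the same strand (right); the line marks equal shares of mouse reads. The 15 called loci are red, and most of them lie far from the line on the left and near it on the right.

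In these female libraries 16 loci were on chromosome Y, with 17 and 12 reads, and 6 of them were read in both libraries. The Y-linked genes Ddx3y, Uty, Kdm5d and Eif2s3y had 0 reads in each library. A further 22 loci lay on unplaced or random scaffolds with 30 and 22 reads, and 1 on chromosome M with 9 in each. Which copy these reads came from was not tested.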

How the data were processed

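The deposited values are the authors' unnormalized counts of reads for each transcript model, with a table for each library in which every listed model has a read. Per the file headers the assembly was mm10 and the annotation GENCODE M21, and the source field of the deposited models names TALON. The aligner is not given in the sources used here.

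Members and lists were chosen with earlier results of these data known. Models of class Intergenic were merged by same-strand overlap of at least 1 base (pandas 2.3.3). Distances run from the gene's 3′ end to the locus 5′ end in M21; RefSeq genes and promoter sequences are of GRCm38.p6. A strand was found for 43678 of 48772 RefSeq genes. Features with 10 or more reads were tested for unequal shares of the mouse reads with an exact binomial test, two-sided (SciPy 1.17.1), with Benjamini-Hochberg adjustment over all features and a pseudocount of 0.5 reads in log2 ratios; the step was tested on simulated data. Only the scaling factors come from edgeR 4.0.16 and DESeq2 1.42.0. Pseudogenes were matched to M21 transcripts with BLAST+ 2.17.0. A model test needs 2 groups and was not made. Named loci were the 10 spliced and 10 single-exon loci with most reads in both libraries, up to 10 called loci with the smallest p, the 5 with most exons in a model of 2 or more reads and the 5 with most reads in 1 library. Others named were chosen after their values were seen. Replicates were not pooled. Sequences were added to the plan because promoter windows of the same assembly were at hand.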

Additional observations from a re-analysis of the deposited data

Results flagged for a closer look

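Models of other classes that the tables assign to intergenic genes were used in no comparison above. They held 173 reads on 106 models in replicate 1 and 113 reads on 77 models in replicate 2, above the 3 reads that a count of 0 allows. Of these models 78 and 48 were spliced.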

How the results depend on the processing

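No paired analysis was possible because the series holds 1 group. The both-library share and the test between libraries need both replicates, so neither was computed with a replicate left out. Leaving out a replicate gave 3841 to 3928 loci in place of 6575, an intergenic share of 0.736 to 0.879%, 6.98 to 8.63% spliced loci, 18.98 to 21.5% of loci within 5 kb of a gene end, and 4.51 to 5.07% of reads on spliced models. Loci with 2 or more reads numbered 1816, of which 65.0% were in both libraries, 6.55% were spliced and 25.6% lay within 5 kb. Of loci with 5 or more reads 89.7% were in both libraries, and 5.93% of all loci had 2 or more reads in each. Within 1 kb and 10 kb of a gene end lay 7.63% and 29.0%, and 14.2% lay within 5 kb of a protein-coding gene. Without the loci that share a base with a gene boundary, an alternative chosen after seeing the data, 16.98% were in both libraries and 16.9% lay within 5 kb. These shares follow from the loci kept. Other ways of merging gave 6584 and 6618 loci. The called loci numbered 13 to 20 over the alternatives; TMM and DESeq2 scaling called 18 and 20, with all 15 among them, moved the median of all features by -0.12 and -0.19 on the log2 scale, and called 395 and 623 of all features in place of 210. Counting all classes together, also added later, gave 13 called of 227 tested, 4 of them among the 15. With 1 read behind most loci, absence from a library was not detectable as such.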
